A study of Rattus norvegicus with 20 samples.

Results

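Aminoacyl-tRNA synthetases are the enzymes that join each amino acid to its tRNA. The genes described here were 35 named genes of this family, 19 for the enzymes of the cytosol and 16 for those imported into mitochondria, whose symbols end in 2. Each was taken by its symbol from the array's annotation, by probe sets that carry exactly 1 symbol, and 34 of the 35 were measured among 18166 genes in all. These 34 were 19 cytosolic and 15 mitochondrial genes with 1 probe set each, and Iars2, for the mitochondrial isoleucyl enzyme, was not analysed here.

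The study measured RNA from INS-1, an established rat insulinoma line used as a model of the pancreatic beta cell, on 20 Affymetrix Rat Gene 2.0 arrays in 4 groups of 5. Its question was how the cells respond to IAPP (islet amyloid polypeptide, the hormone that beta cells secrete with insulin and that can aggregate into amyloid) with and without C4BP (C4b-binding protein, a plasma inhibitor of complement). The IAPP group received 77 µM monomeric IAPP. The C4BPD group was likely given 0.6 µM C4BP alone and the C4BP group likely IAPP with C4BP, a reading that rests on the study having 4 conditions, since the titles do not spell it out. The DMSO group was the control, given 1% DMSO, which was the solvent of IAPP. The series design states these doses, while the sample records give 300 µg/ml for IAPP and for C4BP, and they do not say whether cells given C4BP alone also received DMSO. All groups came from this 1 line, kept as 5 clones over 10 passages and plated at 100000 cells in each well of 12-well plates, and RNA was taken 10 h after the additions. The labels do not say that a replicate number is a clone.

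The array titles named the groups used here. The treatment field of the same records gave the same group in only 3 of the 20 arrays, so every direction below holds for the arrays as titled. With the arrays regrouped by the treatment field, 0 of the 34 genes passed in the F test, in any of the 6 pairwise comparisons or in the interaction. The running number in the titles placed each replicate's arrays in the order IAPP, C4BP, C4BPD and DMSO every time, so place in that order and group cannot be told apart.

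Most cells carry separate sets of synthetases for the cytosol and for mitochondria, both encoded in the nucleus. When uncharged tRNA or another stress activates an eIF2alpha kinase, general translation falls while translation of the transcription factor ATF4 rises, and ATF4 with its C/EBP partners is known to raise a set of genes for amino acid synthesis, amino acid import and cytosolic tRNA charging. Gars1 and Kars1, for the glycyl and lysyl enzymes, each encode both the cytosolic and the mitochondrial form, and Eprs1 encodes 1 protein that charges tRNA with glutamate and with proline. In the beta cell, where insulin makes up a large share of the protein made, ATF4 and its targets have been studied as part of the response to secretory stress.

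Promoter sequences are shown for the genes that the results turn on, since 7 of them hold the letters of the C/EBP-ATF response element, a site that ATF4 and C/EBP proteins are known to bind. The search used TGATGNAA and its reverse complement TTNCATCA, on both strands of the RefSeq promoter entries of the build GRCr8, each 300 bases long with 250 before and 50 from the table's gene start. Of the 35 listed genes, 33 had an entry, all but Gars1 and Rars1. The letters were found in 7 of 17 cytosolic and 0 of 16 mitochondrial genes, against 3.98% of 33469 promoters in the table. The stricter TGATGCAA was found in the same 7 genes, against 0.795% of all promoters. Below, the whole Aars1 entry (chr19:55908232-55908531 on the plus strand) is followed by 110-base windows, 60 before and 50 from the start. They are Cars1 (chr1:208225320-208225429 on the minus strand), Iars1 (chr17:15193603-15193712 on the minus strand), Mars1 (chr7:65023704-65023813 on the minus strand), Yars1 (chr5:146820103-146820212 on the plus strand), Tars1 (chr2:62114753-62114862 on the minus strand) and Nars1 (chr18:60275733-60275842 on the minus strand). Sars1 (chr2:198769316-198769425 on the minus strand) is shown as a cytosolic gene that was higher than in DMSO with no match, and Cars2 (chr16:84652047-84652156 on the plus strand) as the mitochondrial counterpart of Cars1. Capitals mark the match, and the sequences run in the direction of the gene.
Aars1: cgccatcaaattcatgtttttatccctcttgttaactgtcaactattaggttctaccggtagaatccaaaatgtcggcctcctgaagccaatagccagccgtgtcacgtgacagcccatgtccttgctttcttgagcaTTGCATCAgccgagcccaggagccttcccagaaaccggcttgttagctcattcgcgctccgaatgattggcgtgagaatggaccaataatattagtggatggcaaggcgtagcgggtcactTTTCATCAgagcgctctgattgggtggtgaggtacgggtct
Cars1: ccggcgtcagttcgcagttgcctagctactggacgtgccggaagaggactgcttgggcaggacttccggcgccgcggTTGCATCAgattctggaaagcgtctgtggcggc
Iars1: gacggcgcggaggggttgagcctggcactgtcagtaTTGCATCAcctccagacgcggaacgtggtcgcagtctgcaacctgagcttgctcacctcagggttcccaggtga
Mars1: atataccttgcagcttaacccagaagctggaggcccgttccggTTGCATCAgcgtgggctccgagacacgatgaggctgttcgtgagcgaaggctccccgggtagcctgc
Yars1: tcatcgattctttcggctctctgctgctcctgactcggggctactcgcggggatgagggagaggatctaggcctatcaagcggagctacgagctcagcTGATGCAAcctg
Tars1: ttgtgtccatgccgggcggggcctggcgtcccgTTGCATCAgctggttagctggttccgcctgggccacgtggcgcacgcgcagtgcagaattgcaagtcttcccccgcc
Nars1: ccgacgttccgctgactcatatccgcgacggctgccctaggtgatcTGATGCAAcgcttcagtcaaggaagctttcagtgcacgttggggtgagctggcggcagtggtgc
Sars1: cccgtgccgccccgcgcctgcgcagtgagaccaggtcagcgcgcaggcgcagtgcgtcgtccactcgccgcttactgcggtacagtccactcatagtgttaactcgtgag
Cars2: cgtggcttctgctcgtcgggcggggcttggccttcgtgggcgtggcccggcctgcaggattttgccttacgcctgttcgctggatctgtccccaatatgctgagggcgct

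Aars1 held 2 matches, the other 6 genes held 1 each, and in 7 of the 8 the open place was filled by C. The match began 14, 17, 24 and 27 bases before the gene start in Nars1, Mars1, Iars1 and Tars1, and 112 bases before it for the farther of the matches in Aars1. It began 9, 17 and 38 bases after the start in Aars1, Cars1 and Yars1. The table's start lay 1788 bases inside the annotated gene for Aars1, 1298 for Eprs1, 2490 for Cars2 and 1065 for Rars2. The Hars1 and Hars2 entries share 243 bases, since these neighbouring genes start close together in opposite directions. A match is a description of letters, not a shown binding site, and the absence of one says nothing of the factor.

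Values are the deposited intensities, normalized by the authors on a linear scale and compared here as log2. Array medians ran from 170.0 to 182.4 over all probe sets, and pairs of arrays correlated at 0.985 to 0.996 in log2 level across genes. All 34 genes lay above the median log2 level in all 20 arrays. Of 14 beta cell markers 10 were measured, all above that median, with Ins1, Ins2, Iapp, Neurod1, Slc2a2, Slc30a8 and Pcsk2 between the 96.7th and 99.9th percentile of genes. Nkx2-2, Mafa and Nkx6-1 lay lower, at the 77.6th, 72.8th and 54.7th percentile. The alpha cell gene Gcg lay at the 99.8th percentile. Of the markers of other cell types, 2 of 7 for other endocrine cells (Gcg among them), 3 of 8 for acinar and duct cells, 3 of 6 for fibroblasts, 1 of 5 for immune cells and 0 of 1 for endothelial cells lay above the median of all probe sets. Their percentiles among genes ran from 8.97 to 54.5 for acinar and duct cells, from 4.76 to 43.2 for fibroblasts and from 14.6 to 47.2 for immune cells. The number of arrays limits the precision of all values below.

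Against DMSO, the genes of this family that rose in any treated group were all cytosolic, and the changes were moderate, at most 1.45-fold. Among the 19 cytosolic genes, 8 rose in IAPP arrays, where 1.43% of all genes rose, 5 rose in C4BPD arrays against 1.17% of all genes, and 10 rose in C4BP arrays against 2.72%. None of the 19 fell in any of these comparisons, by limma with a Benjamini-Hochberg adjusted p under 0.05 over all 18166 genes. Among the 15 mitochondrial genes, 0 rose in any of them, and 1 fell in IAPP arrays (1.97% of all genes), 0 in C4BPD arrays (0.765%) and 1 in C4BP arrays (3.23%). In either direction, 9, 5 and 11 of the 34 genes passed in IAPP, C4BPD and C4BP arrays, against 3.39%, 1.93% and 5.96% of all genes. Across the 4 groups the F test passed 11 of the 34, the same 10 cytosolic genes and Fars2, against 7.85% of all genes. Single settings moved the C4BPD count of 5 by over 1.5 times, to 8 without DMSO array 3 and to 8 with array weights. With the replicate number as a block that count was 10, the mitochondrial Wars2, which was lower, among them. The numbers are not a shown pairing in that comparison. At an unadjusted p under 0.05, 4, 2 and 4 of the 15 mitochondrial genes passed in IAPP, C4BPD and C4BP arrays, against 12.3%, 12.2% and 16.2% of all genes. Of the beta cell markers 2 of 10 fell in IAPP, 0 in C4BPD and 4 in C4BP arrays, with a summed intensity of 55812 to 58725 in IAPP, 58182 to 62961 in C4BPD, 54814 to 59101 in C4BP and 58675 to 62321 in DMSO arrays. Gcg fell in IAPP arrays, at 9399.7 ± 166 against 10304 ± 285 in DMSO arrays (SD, n = 5 each, adjusted p 0.0195 by limma). The summed intensity of the 7 markers of other endocrine cells, most of it Gcg, was 10050 to 10507 in IAPP and 10834 to 11519 in DMSO arrays, and that of the 6 without Gcg was 838 to 959.9 in IAPP and 889 to 926 in DMSO arrays. Of the 8 acinar and duct markers 1, Ctrb1, fell in IAPP and in C4BP arrays, at 423 ± 27.8 in IAPP and 418 ± 25.2 in C4BP against 482 ± 12 in DMSO arrays (SD, n = 5 each, adjusted p 0.0265 and 0.00929 by limma), and the sum of the 8 was 1117 to 1227 in IAPP, 1088 to 1268 in C4BP and 1188 to 1300.4 in DMSO arrays. The part of these markers in the synthetase results was not tested. The 3 comparisons share the DMSO arrays, so they are not independent of each other. RNA was measured in bulk, where a change in RNA per cell and a change in which cells are present cannot be told apart.

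**Figure D1:**
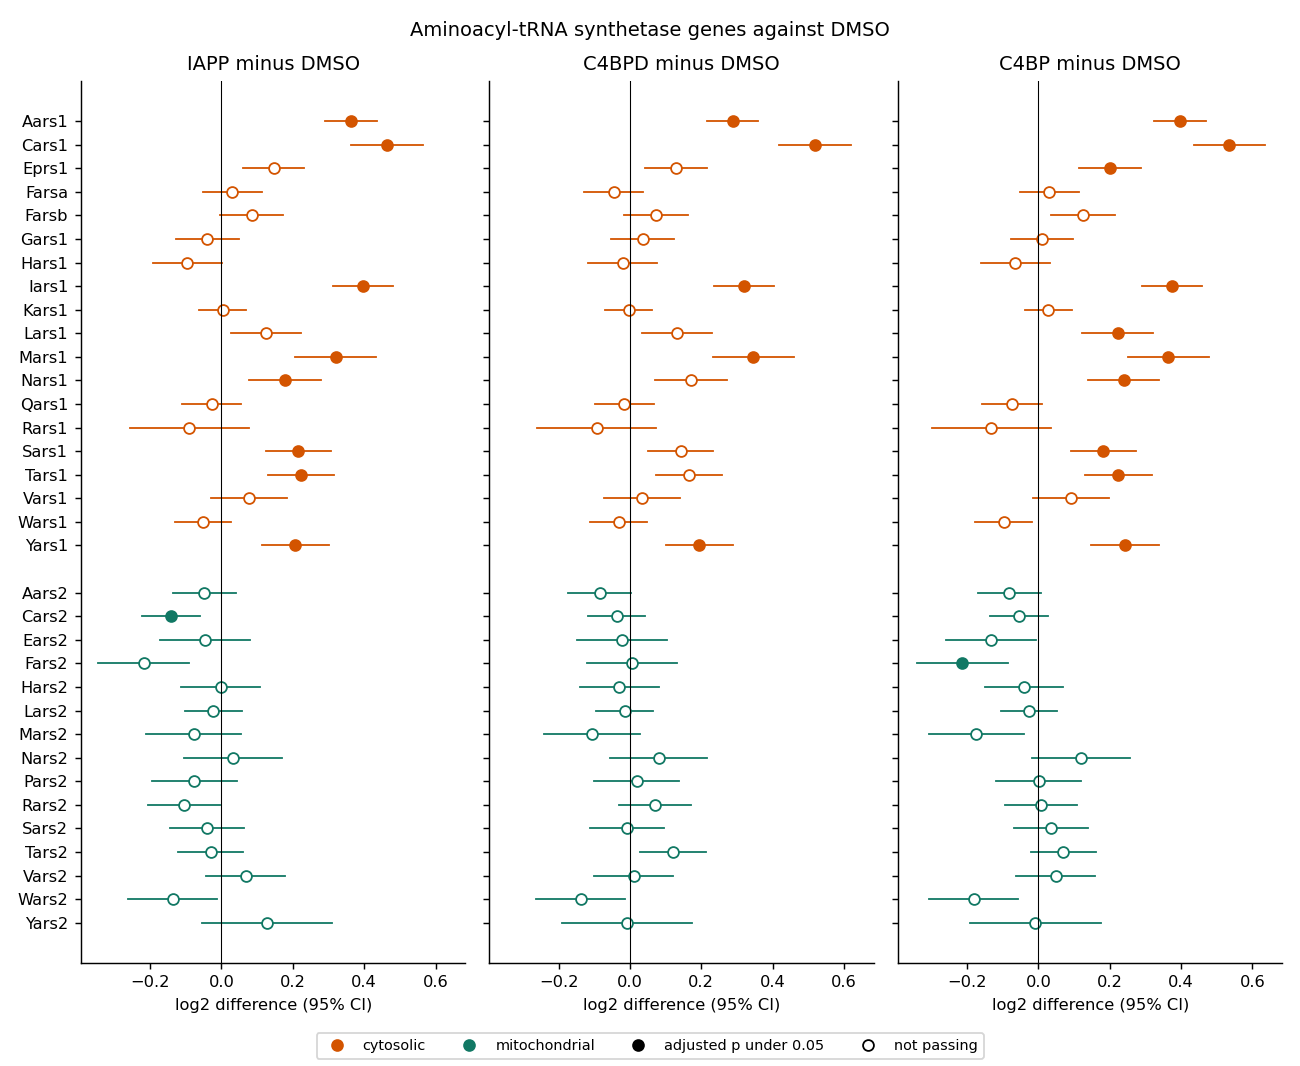
The log2 difference from DMSO (horizontal axis) with its 95% confidence interval is drawn for 34 genes in IAPP, C4BPD and C4BP arrays, cytosolic genes above and mitochondrial genes below, n = 5 arrays per group. Filled points passed an adjusted p of 0.05, and they are 8, 5 and 10 cytosolic genes, all to the right of 0, with Cars2 and Fars2 as the filled mitochondrial points to the left.

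The median log2 difference of the 19 cytosolic genes was 0.12 in IAPP arrays, 0.13 in C4BPD arrays and 0.18 in C4BP arrays. For the 15 mitochondrial genes it was -0.045, -0.0086 and -0.026, and over all 18166 genes it was 0.0018, -0.0090 and 0.0047. For 14 pairs of genes that charge the same amino acid (Farsa and Farsb both set against Fars2), the cytosolic difference was the larger in 13, 12 and 12 pairs. In each array, the median cytosolic level relative to each gene's mean over the 20 arrays lay at 0.0092 to 0.034 in IAPP, -0.016 to 0.096 in C4BPD, 0.018 to 0.071 in C4BP and -0.15 to -0.015 in DMSO arrays. The medians of C4BPD and DMSO arrays overlapped only slightly, through DMSO array 3, and every IAPP and C4BP array lay above every DMSO array. The mitochondrial median lay at -0.056 to -0.0025 in IAPP, -0.016 to 0.061 in C4BPD, -0.043 to 0.025 in C4BP and -0.013 to 0.083 in DMSO arrays.

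**Figure D2:**
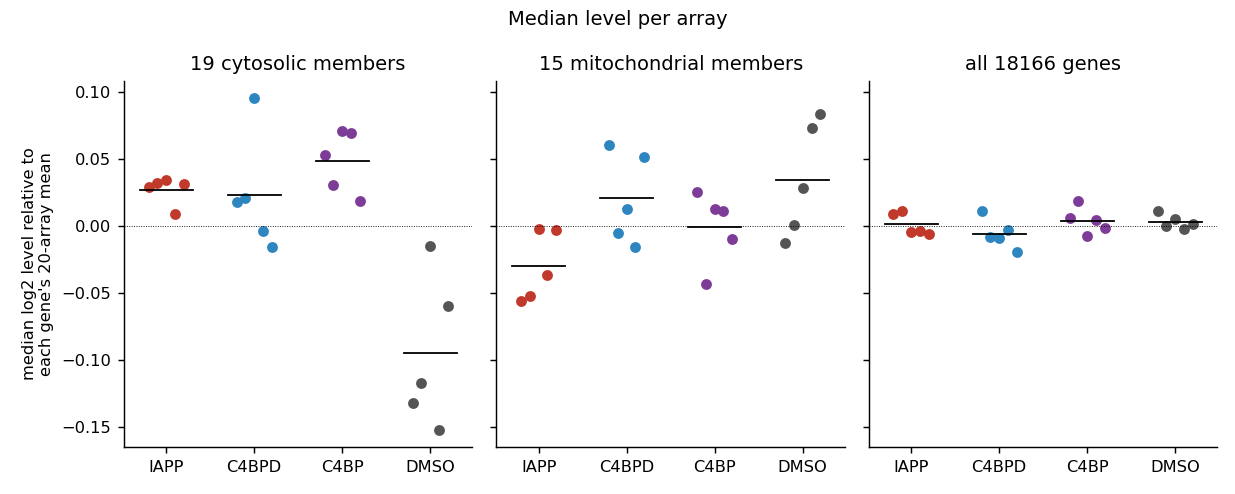
Each point is the median log2 level in 1 array, relative to each gene's mean over 20 arrays, for 19 cytosolic genes, 15 mitochondrial genes and all 18166 genes, and the bar is the mean of 5 arrays. For the cytosolic genes the DMSO arrays run from -0.15 to -0.015, and all of them but array 3 lie below every treated array, while the all-gene medians run from -0.019 to 0.019 over the 20 arrays.

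Cars1, Aars1, Iars1 and Mars1 showed the largest differences from DMSO among the 34 genes, and they passed in all 3 treated groups. Cars1, which charges cysteine, read 1286, 1214, 1270.4, 1242 and 1273 in the IAPP arrays, 1436, 1227, 1367, 1238 and 1274 in the C4BPD arrays, 1363, 1206, 1369, 1342 and 1330.1 in the C4BP arrays, and 892, 889.5, 987, 890.4 and 902 in the DMSO arrays, in the order of replicates 1 to 5. Every treated array lay above every DMSO array, and DMSO array 3 was the highest of its group. The log2 difference was 0.46 in IAPP (95% interval 0.36 to 0.56, 1.38-fold), 0.52 in C4BPD (0.42 to 0.62, 1.43-fold) and 0.54 in C4BP arrays (0.44 to 0.64, 1.45-fold), with limma adjusted p of 4.31e-06, 9.16e-07 and 3.69e-07.

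Aars1, for alanine, read 2889, 2891, 2742, 2993 and 2852 in the IAPP arrays, 2808, 2600.1, 2736, 2733 and 2762 in the C4BPD arrays, 3028, 2856, 2901, 2981 and 2935 in the C4BP arrays, and 2202, 2195, 2206, 2211 and 2354 in the DMSO arrays. The 15 treated arrays and the 5 DMSO arrays did not overlap, and within the treated arrays the C4BPD values were the lowest on average. Group means were 2873 ± 90.1 in IAPP, 2728 ± 77.5 in C4BPD, 2940.2 ± 66.8 in C4BP and 2234 ± 67.7 in DMSO arrays (SD, n = 5 each), and Aars1 rose by 0.36, 0.29 and 0.40 log2 units in IAPP, C4BPD and C4BP arrays, with adjusted p of 1.59e-06, 3.68e-05 and 2.74e-07 by limma. Iars1, the isoleucyl enzyme of the multisynthetase complex, in which several cytosolic synthetases are held together by scaffold proteins, read 3000.5, 3108, 2952, 2881 and 2931 in the IAPP arrays, 2853, 2847, 2844, 2657 and 2906 in the C4BPD arrays, 2969, 3062, 2881, 2733 and 2995 in the C4BP arrays, and 2298, 2268, 2132, 2203 and 2396 in the DMSO arrays. Its DMSO arrays were again below all others. The difference was 0.40 (0.31 to 0.48) in IAPP, 0.32 (0.24 to 0.41) in C4BPD and 0.37 (0.29 to 0.46) in C4BP arrays. Mars1, the methionyl enzyme that also charges the initiator tRNA, read 2748, 2575, 2605, 2469.9 and 2502 in the IAPP arrays, 2857, 2580.1, 2733, 2428 and 2541 in the C4BPD arrays, 3005, 2540.1, 2711, 2559.5 and 2499 in the C4BP arrays, and 2121, 1984, 2214, 2045 and 1969 in the DMSO arrays. C4BP array 1, IAPP array 1 and C4BPD array 1 were the highest of their groups, and no treated array reached down to the DMSO range. Mars1 was 1.25-fold, 1.27-fold and 1.29-fold its DMSO level in IAPP, C4BPD and C4BP arrays, with adjusted p of 0.00128, 0.00086 and 0.000169 by limma.

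**Figure D3:**
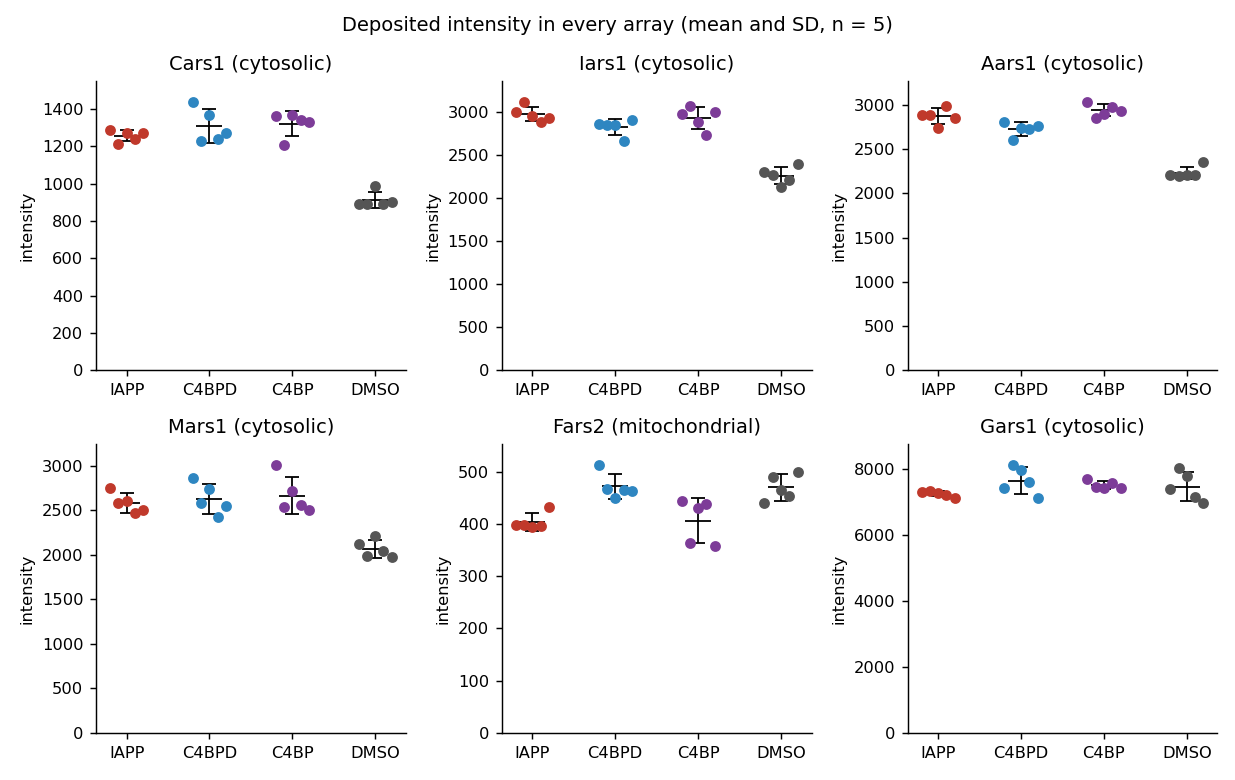
Deposited intensity (vertical axis, from 0) of Cars1, Iars1, Aars1, Mars1, Fars2 and Gars1 is drawn for every array, with the mean and SD of 5 arrays per group. For the first 4 genes all treated arrays lie above all DMSO arrays, Fars2 is lower in IAPP than in C4BPD and DMSO arrays, and the Gars1 groups overlap with DMSO.

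Yars1, for tyrosine, was the fifth gene to pass in all 3 comparisons. It read 2982, 3133, 3172, 2949 and 2897 in the IAPP arrays, 3219.9, 2861, 3206, 2913 and 2820.2 in the C4BPD arrays, 3087, 3198, 3117, 3102 and 3002 in the C4BP arrays, and 2641, 2560.2, 2826, 2504 and 2582 in the DMSO arrays. The IAPP and C4BP arrays lay above all DMSO arrays, while C4BPD array 5 lay just below DMSO array 3. Differences were 0.21, 0.19 and 0.24 log2 units in IAPP, C4BPD and C4BP arrays, and the C4BPD call, at an adjusted p of 0.0272 by limma, was lost without any 1 of C4BPD arrays 1 and 3 and DMSO arrays 2, 4 and 5 (adjusted p 0.0586, 0.0822, 0.0668, 0.0764 and 0.0691).

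Tars1, Sars1 and Nars1 rose in IAPP and in C4BP arrays. Tars1, for threonine, read 2172, 2240.5, 2267, 2217 and 2209 in the IAPP arrays, 1964, 2157, 2281, 2153 and 2130.0 in the C4BPD arrays, 2161, 2161, 2334, 2259 and 2201 in the C4BP arrays, and 1833, 1814, 2087, 1822 and 1971 in the DMSO arrays. The IAPP and C4BP values all exceeded the DMSO values, whose highest was again array 3, and the C4BPD values reached below it. Tars1 rose by 0.22 in IAPP arrays and 0.22 in C4BP arrays, and the C4BPD difference of 0.17 (0.073 to 0.26) had an adjusted p of 0.0613 by limma.

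Sars1, which charges serine and also starts the path to selenocysteine on its tRNA, read 3611, 3683, 3533, 3681 and 3445 in the IAPP arrays, 3417, 3308, 3640.3, 3345 and 3358 in the C4BPD arrays, 3515, 3415, 3585, 3661 and 3368 in the C4BP arrays, and 3174, 2975, 3406, 3034 and 2895 in the DMSO arrays. Without DMSO array 3 no treated array would fall inside the DMSO range. The differences were 0.22 in IAPP arrays and 0.18 in C4BP arrays, both passing, and 0.14 (0.051 to 0.23, limma adjusted p 0.119) in C4BPD arrays. Nars1, for asparagine, read 4534, 4733, 4719, 4959 and 4681 in the IAPP arrays, 4492, 4642, 5109, 4752 and 4547 in the C4BPD arrays, 4797, 5159, 4654, 5081 and 4967 in the C4BP arrays, and 3897, 3931, 4577, 4170.1 and 4342 in the DMSO arrays. Only the C4BP group was free of overlap. Its differences were 0.18, 0.17 and 0.24 log2 units in IAPP, C4BPD and C4BP arrays, with limma adjusted p of 0.0447, 0.0775 and 0.00327, and the IAPP call was lost in 15 of 20 fits that left out 1 array, with an adjusted p up to 0.139.

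Eprs1 and Lars1, both of the multisynthetase complex, passed in C4BP arrays. Eprs1 read 2701, 2819, 2838, 2817 and 3057 in the IAPP arrays, 2861, 2833, 2916, 2695 and 2754 in the C4BPD arrays, 2936, 3055, 2932, 2878 and 2979.6 in the C4BP arrays, and 2480.0, 2570.3, 2534, 2467 and 2817 in the DMSO arrays. Its C4BP arrays all lay above the DMSO arrays, and DMSO array 5 stood above the other DMSO arrays and inside the IAPP and C4BPD ranges. The difference was 0.20 (0.11 to 0.29, adjusted p 0.00392 by limma) in C4BP arrays, beside 0.15 (0.06 to 0.23) in IAPP and 0.13 (0.042 to 0.22) in C4BPD arrays, which did not pass. Lars1, the leucyl enzyme that has also been described as a leucine sensor for mTORC1, read 2707, 2962, 2849.9, 3026 and 3000.1 in the IAPP arrays, 2667, 2998, 3090.5, 2889.6 and 2986 in the C4BPD arrays, 2970.3, 3071, 3163, 3164 and 3189.5 in the C4BP arrays, and 2449, 2733, 2807, 2584 and 2780.4 in the DMSO arrays. The C4BP arrays were the highest group and did not overlap with DMSO, while the IAPP and C4BPD arrays numbered 1 lay inside the DMSO range. Its difference of 0.22 (0.12 to 0.32) in C4BP arrays passed at 0.00532 by limma, and those of 0.12 in IAPP and 0.13 in C4BPD arrays did not (adjusted p 0.223 and 0.207).

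The other 9 cytosolic genes passed in none of the 3 comparisons, and their differences ranged from -0.13 (Rars1 in C4BP arrays) to 0.12 (Farsb in C4BP arrays). They were Farsa and Farsb, the subunits of the cytosolic phenylalanyl enzyme, Gars1, Hars1 (histidine), Kars1, Qars1 (glutamine), Rars1 (arginine), Vars1 (valine) and Wars1 (tryptophan). Kars1 was the most tightly bounded, with group means of 3855 ± 68.2 in IAPP, 3835 ± 56.4 in C4BPD, 3922 ± 105 in C4BP and 3846 ± 101 in DMSO arrays (SD, n = 5 each) and intervals of -0.062 to 0.069 in IAPP, -0.069 to 0.061 in C4BPD and -0.037 to 0.093 in C4BP arrays. Gars1 averaged 7263 ± 78.3 in IAPP, 7663 ± 405 in C4BPD, 7519.6 ± 119.6 in C4BP and 7477 ± 448 in DMSO arrays, and its intervals were -0.13 to 0.048, -0.052 to 0.12 and -0.078 to 0.10. The interval of Gars1 thus reached to at most 0.12, and that of Kars1 to 0.093, below the lower ends of the intervals of Cars1, Aars1, Iars1 and Mars1. Rars1 was the least certain, at -0.09 (-0.26 to 0.077), -0.093 (-0.26 to 0.074) and -0.13 (-0.30 to 0.036). Hars1 was lowest against DMSO in IAPP arrays, at -0.10 (-0.19 to 0.00058). Wars1 stood lower in every C4BP array than in every DMSO array, at -0.10 (-0.18 to -0.019), with a limma adjusted p of 0.164.

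Genes that rose lay both inside and outside the multisynthetase complex. In C4BP arrays, where 2.72% of all genes rose, 4 of 7 complex members did (Eprs1, Iars1, Lars1 and Mars1, with Kars1, Qars1 and Rars1 not passing) and 6 of the 12 genes outside it. In IAPP arrays 2 of 7 and 6 of 12 rose (1.43% of all genes), and in C4BPD arrays 2 of 7 and 3 of 12 (1.17%). Synthetases also fall into class I and class II by the fold of their catalytic domain, and Eprs1 holds both. Of 9 class I genes, 4 rose in IAPP, 4 in C4BPD and 5 in C4BP arrays, and of 9 class II genes, 4, 1 and 4 rose. The difference between these subsets was not tested.

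Levels that did not overlap between groups gave a second count. In IAPP arrays 7 cytosolic genes lay wholly above DMSO and 0 below, where 2.14% of all genes lay above and 2.69% below. In C4BPD arrays 4 lay above (1.99% of all genes) and 0 below (1.83%), and in C4BP arrays 9 lay above (2.85%) and 1, Wars1, below (3.28%). Of the mitochondrial genes, Cars2 and Fars2 lay wholly below DMSO in IAPP arrays, Tars2 wholly above it in C4BPD arrays, and Wars2 wholly below it in C4BP arrays.

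None of the measured mitochondrial counterparts of the genes that rose passed as higher in any comparison with DMSO. Iars2, the counterpart of Iars1, was not analysed. Cars2 read 552, 559.5, 574, 568 and 577 in the IAPP arrays, 641, 613, 605, 604 and 582 in the C4BPD arrays, 616, 604, 560.5, 622 and 607 in the C4BP arrays, and 593, 601, 646, 631 and 655 in the DMSO arrays. Its IAPP arrays lay below every DMSO array, and its other treated arrays overlapped with DMSO. Cars2 fell by 0.14 on the log2 scale in IAPP arrays (-0.22 to -0.061, adjusted p 0.0474 by limma), a call that was lost in 17 of 20 fits without 1 array, all but those without C4BPD array 1, C4BP array 3 or DMSO array 1, with an adjusted p up to 0.14. In C4BPD and C4BP arrays its difference was -0.038 and -0.054.

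Fars2, a single-chain phenylalanyl enzyme unlike its cytosolic counterpart of paired subunits, read 399, 398, 394, 396 and 434 in the IAPP arrays, 513, 468, 449, 466 and 464 in the C4BPD arrays, 444, 363, 431, 438 and 358 in the C4BP arrays, and 441, 490.2, 466, 453 and 501 in the DMSO arrays. The IAPP arrays were the lowest as a group and lay wholly below the C4BPD and DMSO arrays, and the C4BP arrays included arrays 2 and 5 well below the other 3. Fars2 fell in C4BP arrays by 0.21 on the log2 scale (-0.34 to -0.086, adjusted p 0.041 by limma), the difference in IAPP arrays was -0.22 (-0.34 to -0.091, adjusted p 0.0549), and that in C4BPD arrays was 0.006 (-0.12 to 0.13). The C4BP call was lost in 11 of 20 fits without 1 array, with an adjusted p up to 0.123.

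Aars2 read 434, 421, 436, 411 and 468 in the IAPP arrays, 436, 414, 402, 425 and 439 in the C4BPD arrays, 428, 391, 436, 424 and 442 in the C4BP arrays, and 454, 432, 438, 461 and 458 in the DMSO arrays. Its groups overlapped, and the differences from DMSO were -0.048, -0.085 and -0.081 in IAPP, C4BPD and C4BP arrays. Mars2 read 1631, 1424, 1523, 1429 and 1318 in the IAPP arrays, 1509, 1340.5, 1569, 1418 and 1341 in the C4BPD arrays, 1477, 1319.7, 1441, 1351 and 1260.2 in the C4BP arrays, and 1598, 1443, 1709, 1436 and 1543 in the DMSO arrays. C4BP arrays were the lowest on average, with a difference of -0.17 (-0.31 to -0.039, limma adjusted p 0.142). Yars2 read 656, 610.5, 656, 662 and 657 in the IAPP arrays, 531, 535, 629.9, 624 and 643 in the C4BPD arrays, 621, 478, 696, 642 and 539 in the C4BP arrays, and 544, 569, 665, 656 and 545 in the DMSO arrays. It varied more between arrays of 1 group than any other of the 34 genes in its standard error, 0.088 log2 units, and the intervals of -0.056 to 0.31, -0.19 to 0.18 and -0.19 to 0.17 spanned 0.

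Tars2 read 741, 725, 786, 775 and 748 in the IAPP arrays, 910.3, 795, 844, 790.3 and 854 in the C4BPD arrays, 861, 789, 809.6, 829 and 761 in the C4BP arrays, and 786, 781, 786, 728 and 775 in the DMSO arrays. C4BPD arrays stood above all DMSO and all IAPP arrays, though the difference from DMSO of 0.12 (0.028 to 0.21) had an adjusted p of 0.225 by limma. Sars2 read 661, 658, 667, 686 and 767 in the IAPP arrays, 734, 702, 653, 694 and 728 in the C4BPD arrays, 715, 736, 702, 735 and 729.9 in the C4BP arrays, and 655, 698, 674, 762 and 747 in the DMSO arrays. Its intervals against DMSO spanned 0 in all 3 groups, the highest end being 0.14 in C4BP arrays. Nars2 read 393, 402, 421, 394 and 395 in the IAPP arrays, 388, 419, 431, 407 and 429.7 in the C4BPD arrays, 413, 354, 464, 474 and 437 in the C4BP arrays, and 350.5, 407, 394, 428 and 386 in the DMSO arrays. The C4BP arrays spread most widely, and the difference there was 0.12 (-0.018 to 0.26).

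Lars2 read 264, 278, 276, 283 and 276 in the IAPP arrays, 292, 270.5, 277, 261 and 287 in the C4BPD arrays, 279.6, 266, 279, 269.9 and 280.3 in the C4BP arrays, and 274, 275, 289.8, 294 and 267 in the DMSO arrays. These were close to each other in all 4 groups, and the differences from DMSO lay between -0.026 and -0.015. Ears2 and Pars2 divide between them, in mitochondria, the glutamyl and prolyl tasks that Eprs1 joins. Ears2 read 473, 454, 472, 460.3 and 511 in the IAPP arrays, 486, 483, 473, 467 and 497 in the C4BPD arrays, 486, 432, 519, 418 and 387 in the C4BP arrays, and 474, 485, 468, 509 and 507 in the DMSO arrays. C4BP array 5 was the lowest and C4BP array 3 the highest of all 20, and the C4BP difference was -0.13 (-0.26 to -0.0055, limma adjusted p 0.277). Pars2 read 307, 286, 297, 288 and 300.2 in the IAPP arrays, 344, 304, 325, 300.1 and 307 in the C4BPD arrays, 349, 301, 321, 313 and 277 in the C4BP arrays, and 317, 321, 314, 329 and 277 in the DMSO arrays. IAPP arrays were the lowest on average and DMSO array 5 lay below them, with differences of -0.076, 0.019 and 0.00072.

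Hars2, Rars2, Vars2 and Wars2 complete the mitochondrial set. Wars2 averaged 1191 ± 89.3 in IAPP, 1188 ± 61.4 in C4BPD, 1154 ± 86.5 in C4BP and 1307 ± 63 in DMSO arrays (SD, n = 5 each). Its differences were -0.14 (-0.26 to -0.013), -0.14 (-0.26 to -0.014) and -0.18 (-0.31 to -0.058) in IAPP, C4BPD and C4BP arrays, with limma adjusted p of 0.327, 0.339 and 0.083. Hars2 and Vars2 had intervals that spanned 0 in all 3 comparisons, within -0.15 and 0.18.

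No difference between C4BP and IAPP arrays passed in the 34 genes. By limma 0 passed between C4BP and IAPP arrays, where 0.606% of all genes passed, and 3, Cars2, Rars2 and Tars2, had an unadjusted p under 0.05, against 7.93% of all genes. For Cars1, Aars1, Iars1 and Mars1 the differences were 0.071 (-0.029 to 0.17), 0.034 (-0.038 to 0.11), -0.023 (-0.11 to 0.061) and 0.043 (-0.07 to 0.16). A miss of the threshold does not show that the groups are alike, and these intervals bound the differences to at most 0.17 above 0. Gars1 lay higher in every C4BP array than in every IAPP array, as did 1.48% of all genes, at 0.05 (adjusted p 0.925 by limma). Median differences were 0.031 for cytosolic, -0.0029 for mitochondrial and 0.0013 for all genes.

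Between C4BP and C4BPD arrays 0 of 34 genes passed by limma, against 2.37% of all genes, and 2, Aars1 and Fars2, had an unadjusted p under 0.05, against 13.7% of all genes. Aars1 was higher in every C4BP array than in every C4BPD array, as were 1.36% of all genes, by 0.11 (0.036 to 0.18, adjusted p 0.121), and Fars2 was lower in every one, as were 2.37% of all genes, at -0.22 (-0.35 to -0.092, adjusted p 0.0644). Medians were 0.048 for cytosolic, -0.017 for mitochondrial and 0.012 for all genes.

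Between C4BPD and IAPP arrays 2 of 34 genes passed, both mitochondrial and both higher in C4BPD arrays, where 3.66% of all genes were higher and 5.48% passed in either direction. The 2 of 34 are 5.88%, near the share of all genes, so the count does not set this family as a whole apart. By class they were 2 of 15 mitochondrial genes, 13.3%, and 0 of 19 cytosolic genes. The difference between the classes was not tested. Fars2 averaged 472 ± 24 in C4BPD arrays and 404 ± 16.7 in IAPP arrays, a difference of 0.22 (adjusted p 0.0341 by limma). Rars2, for mitochondrial arginine, averaged 1152 ± 72.1 and 1019.5 ± 47.1 in the same groups (SD, n = 5 each), a difference of 0.18 (0.075 to 0.28, adjusted p 0.0358). With Cars2 and Tars2, 4 of the 15 mitochondrial genes lay wholly above IAPP in C4BPD arrays, as did 0 of the 19 cytosolic genes and 4.25% of all genes. Rars2 in C4BP and DMSO arrays averaged 1102 ± 38.8 and 1097 ± 58.4. Tars2 differed by 0.15 at an adjusted p of 0.0502 by limma. With the replicate number as a block, Tars2 passed at 0.0237, beside Fars2 at 0.0395 and Rars2 at 0.00491. The count of 2 fell to 1 or 0 without any 1 of the 5 IAPP arrays or of C4BPD arrays 1, 3, 4 and 5. Fars2 and Rars2 lost their calls without 1 array in 8 and in 6 of 20 fits, with adjusted p up to 0.081 and 0.113. Of 7 markers of other endocrine cells 1, Gcg, passed between these groups as well, at 10135 ± 181 in C4BPD and 9399.7 ± 166 in IAPP arrays, and its part in the result was not tested.

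For Cars1 and Iars1 the difference between C4BP and C4BPD arrays was smaller than that between IAPP and DMSO arrays. The interaction compares the C4BP minus C4BPD difference with the IAPP minus DMSO difference, and 2 of 34 genes passed, both cytosolic, of 9 genes in all (0.0495% of all genes). For Cars1 the difference was 0.016 (-0.084 to 0.12) between C4BP and C4BPD arrays, beside 0.46 (0.36 to 0.56) between IAPP and DMSO arrays, an interaction of -0.45 (-0.59 to -0.31, adjusted p 0.0118 by limma). For Iars1 these were 0.053 (-0.031 to 0.14) and 0.40 (0.31 to 0.48), an interaction of -0.34 (-0.46 to -0.23, adjusted p 0.0221). Aars1 and Mars1 had interactions of -0.25 and -0.30 with limma adjusted p of 0.0669 and 0.445. With the replicate number as a block both passed, at 0.023 and 0.0133, though the number is not a shown pairing there. The median interaction was -0.034 for cytosolic, 0.011 for mitochondrial and 0.0088 for all genes. With each array centred on its median the adjusted p was 0.0517 for Cars1 and 0.0715 for Iars1, and Iars1 lost its call without any 1 of 8 arrays (IAPP 2 and 3, C4BPD 2, 3 and 5, C4BP 3 and 4, and DMSO 2; adjusted p 0.0516 to 0.0616).

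**Figure D4:**
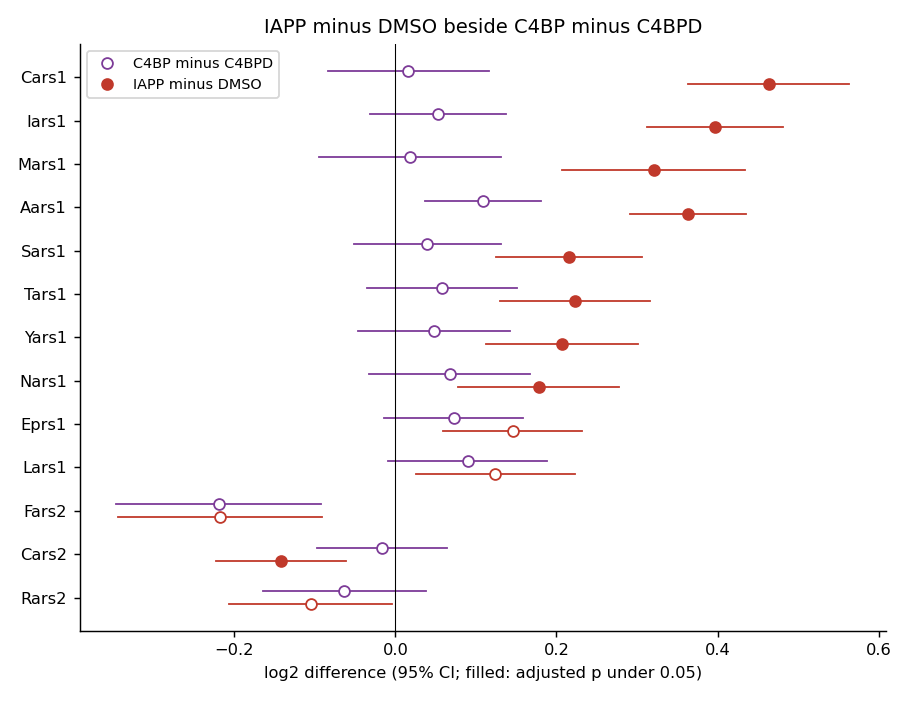
For 13 genes the log2 difference between C4BP and C4BPD arrays (purple) is drawn above that between IAPP and DMSO arrays (red), with 95% confidence intervals and n = 5 arrays per group. Filled points passed an adjusted p of 0.05, and for Cars1 the purple point lies at 0.016 and the red one at 0.46, while for Fars2 both lie at -0.22.

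The response element letters shown earlier can be set beside these levels. Of the 10 cytosolic genes that rose in at least 1 treated group, 7 held a match, and all 5 that rose in all 3 did (Aars1, Cars1, Iars1, Mars1 and Yars1). Of the 7 other cytosolic genes with a promoter entry, 0 held one. Sars1, Eprs1 and Lars1 rose with no match in the window. Of the 16 mitochondrial genes with an entry, Cars2 and Fars2 included, none held one. The table's start lay far inside the annotated gene for Aars1 (1788 bases), counted with a match. It did so too for Eprs1 (1298), Cars2 (2490) and Rars2 (1065), counted without one. These match counts are within lists chosen with the responses known and carry no test.

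**Figure D5:**
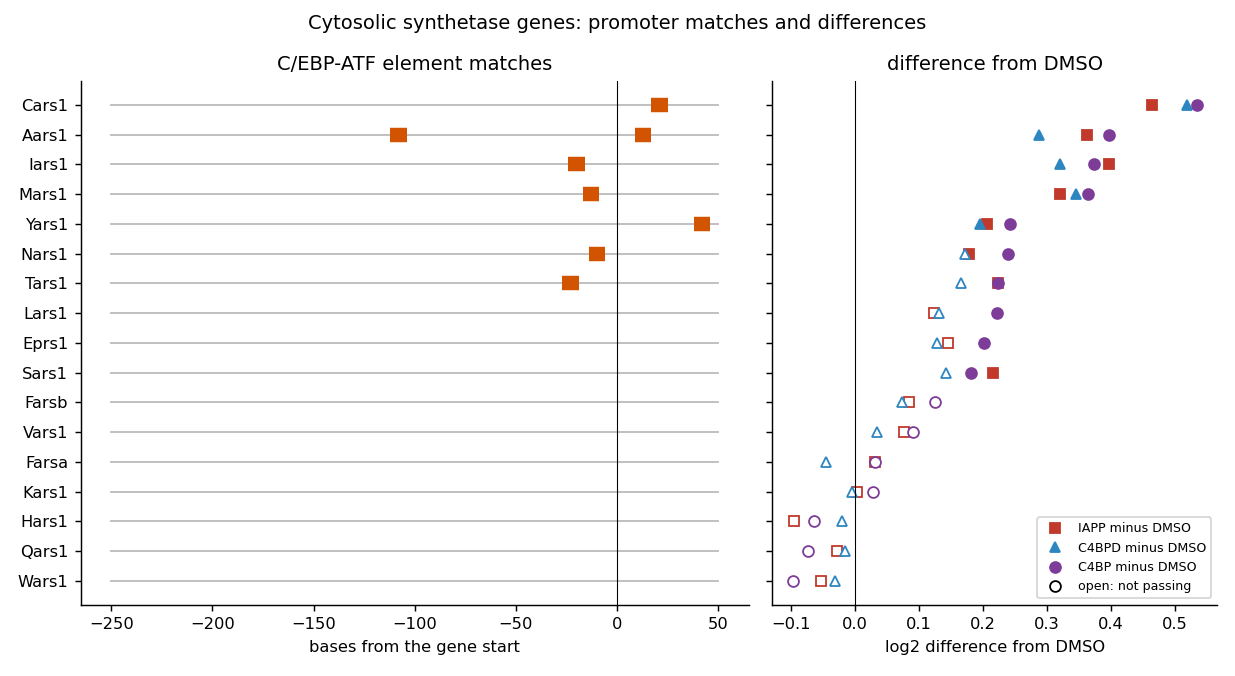
Left, bars mark where the letters TGATGNAA or their reverse complement lie, in bases from the gene start, in 17 cytosolic promoters ordered by the difference between C4BP and DMSO arrays. Right, the log2 difference from DMSO of the same genes in IAPP, C4BPD and C4BP arrays, filled where the adjusted p was under 0.05, shows the 7 genes with bars at the top.

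Some other genes of tRNA charging passed as well. Of 22 genes listed as partners (complex scaffolds, tRNA export, editing, mitochondrial amidotransferase, elongation factors and others), 17 were measured, and 1 rose and 1 fell in IAPP arrays, 0 passed in C4BPD arrays, and 2 rose and 1 fell in C4BP arrays, where 3.39%, 1.93% and 5.96% of all genes passed in either direction. The rising genes, named here after their values were seen, were Xpot, the nuclear export receptor for tRNA, and in C4BP arrays also Pstk, a kinase on the path to selenocysteine. Xpot averaged 1636 ± 95.3 in IAPP, 1452 ± 115 in C4BPD, 1619 ± 78.9 in C4BP and 1409.9 ± 76.3 in DMSO arrays (SD, n = 5 each), a rise of 0.21 in IAPP and 0.20 in C4BP arrays. Ptrh2, a mitochondrial peptidyl-tRNA hydrolase, fell by 0.17 and by 0.24 on the log2 scale in the same groups. In C4BPD arrays 1 of the 17 had an unadjusted p under 0.05 by limma, against 12.2% of all genes. Between C4BPD and IAPP arrays 1 of the 17 passed, 5.88%, which is near the 5.48% of all genes. It was Gatb, a subunit of the mitochondrial amidotransferase, at 906 ± 70.3 in C4BPD and 766 ± 33 in IAPP arrays (SD, n = 5 each), a difference of 0.24 (adjusted p 0.00748 by limma).

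Genes of the ATF4 pathway outside this family also rose. Of 37 listed genes 36 were measured, and leaving out Cars1, which is on the list too, 15 of 35 rose in IAPP, 10 in C4BPD and 13 in C4BP arrays, against 1.43%, 1.17% and 2.72% of all genes, and 0 fell in any. Chac1, a glutathione-degrading enzyme, averaged 675 ± 52 in IAPP, 761 ± 109 in C4BPD, 799 ± 15.1 in C4BP and 349 ± 39.8 in DMSO arrays, differences from DMSO of 0.95, 1.12 and 1.20. Trib3, a pseudokinase that feeds back on ATF4, differed by 1.34, 0.90 and 1.24. The transporters Slc1a4 and Slc7a1 differed by 0.72 and 0.46 in IAPP, 0.78 and 0.39 in C4BPD, and 0.89 and 0.53 in C4BP arrays. Psat1 of serine synthesis rose by 0.33, 0.41 and 0.45, Asns, which makes asparagine, by 0.28, 0.29 and 0.38, and the transcription factor Atf5 by 0.38, 0.30 and 0.44. All of these passed in all 3 comparisons by limma, but not every listed gene did. The transcription factors Atf3 and Ddit3 rose by 1.09 and 0.46 in IAPP arrays, and differed by 0.043 and 0.0080 in C4BPD arrays (limma adjusted p 0.946 and 0.982). In C4BP arrays they differed by 0.42 and 0.17, not passing. Both were lower in C4BPD than in IAPP arrays (limma adjusted p 3.26e-05 and 0.000841). Between these groups 3 of the 35 genes were lower in C4BPD arrays and 1 higher, while 5.48% of all genes passed. The interaction passed in 3 of the 35, against 0.0495% of all genes, all lower: Chac1 at -0.87, Slc1a4 at -0.61 and Trib3 at -0.997, beside the -0.45 of Cars1.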

How the data were processed

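RNA of 20 arrays was measured. The authors deposited 1 normalized intensity per probe set on a linear scale, made with Affymetrix Expression Console per the submitters' processing notes; the program's version, its summarization algorithm and the library files behind it are not stated in the records used. Here log2 was taken with no offset. Of 36685 probe sets, 190 controls were left out, 18511 carried 1 gene symbol, 575 several and 17599 none, and the brightest probe set stood for each of the 291 genes with more than 1, giving 18166 genes. Probe levels of the synthetase genes were not compared with each other. The percentiles of markers and the places above the median do rank probe levels between genes, and are rough for that reason. Groups came from the titles. A fit of 4 group means with limma 3.58.1 (lmFit, eBayes; R 4.3.3) left 16 residual degrees of freedom, with two-sided p-values, Benjamini-Hochberg adjustment over all genes and a threshold of 0.05; intervals are 95%. The fit was checked on simulated data with independent noise and planted differences larger than most described here. Deviations shared by same-numbered arrays were not simulated. Python 3.11.15, pandas 2.3.3 and matplotlib 3.10.9 handled promoters and figures.

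The genes and lists were chosen with earlier results of these data known. Named in every array were the genes past the threshold in any test, at most 12 by smallest F-test p. The mitochondrial enzyme for the same amino acid was named with each. Others past the threshold or with the largest difference are named by mean or difference. The rule for the context lists named at most 8 genes, by smallest F-test p, Cars1 among them. Xpot, Pstk, Ptrh2, Gatb, Atf3 and Ddit3 are named outside that rule, after their values were seen. An order of levels among the synthetase genes, planned at first, was left out because probe levels compare only roughly between genes. Replicates are arrays with separate numbers in the titles, and where these are not separate clones the p-values measure technical spread. Same-numbered C4BPD and IAPP arrays deviated together in 5 of 5 pairs (correlations 0.152 to 0.305). By a rule that every pair exceed 0.1, the number was taken as a pairing only there. That rule is coarse, and it has no baseline, since arrays of different numbers were not correlated in the same way. Between C4BP and IAPP arrays 4 of 5 pairs exceeded 0.1, and their median of 0.318 was above the 0.168 between C4BPD and IAPP arrays. The median was lowest between IAPP and DMSO arrays, at 0.0945. Calls in the Results come from the fit without the number unless a block is named. Alternatives covered scaling, filter, offset, probe choice, variance model, array weights, block, grouping field and left-out arrays.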

Additional observations from a re-analysis of the deposited data

Results flagged for a closer look

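Of 136 groups of 5 arrays (34 genes in 4 groups), 13 had 1 array far from the other 4 by Dixon's test, where chance gives about 1 in 20. Among the cytosolic genes, Aars1 read 2354 in DMSO array 5 and 2195 to 2211 in the other DMSO arrays. Cars1 read 1206 in C4BP array 2, with 1330 to 1369 in the others, and 986.5 in DMSO array 3, with 889.5 to 902.0 in the others. Both Cars1 values lie on the side that narrows its difference between those groups. Hars1 read 2880 in C4BPD array 3 (others 2508 to 2585), Iars1 2657 in C4BPD array 4 (others 2844 to 2906) and Qars1 1987 in IAPP array 4 (others 2122 to 2178).

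Among the mitochondrial genes, Cars2 read 560.5 in C4BP array 3 (others 604.5 to 622.5), Fars2 433.6 in IAPP array 5 (others 393.8 to 399.0), and Sars2 767 in the same IAPP array 5 (others 658 to 686.2). Pars2 read 277.3 in DMSO array 5 (others 314.5 to 329.2), Tars2 727.6 in DMSO array 4 (others 775.1 to 785.8), Wars2 1007 in C4BP array 1 (others 1163 to 1230) and Yars2 610.5 in IAPP array 2 (others 656.2 to 662.4).

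The difference between C4BP and C4BPD arrays differed from that between IAPP and DMSO arrays for Cars1, by -0.4478 log2 units, and for Iars1, by -0.3442, as a tested interaction.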

How the results depend on the processing

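Of 1427 single-gene values under other settings, 1216 kept direction and call, 185 kept direction and lost the call, and 26 reversed. All 26 reversed with the arrays grouped by the treatment field. The log2 differences then became, in IAPP, C4BPD and C4BP arrays against DMSO, -0.02675, -0.02331 and -0.07329 for Aars1, -0.01663, -0.0637 and -0.1851 for Cars1, -0.02061, -0.01432 and -0.06711 for Iars1, -0.03385, -0.08573 and -0.1478 for Mars1, and -0.03721, -0.0922 and -0.1221 for Yars1. In IAPP and C4BP arrays they became -0.1182 and -0.1277 for Nars1, -0.01792 and -0.07193 for Sars1, and -0.06328 and -0.07557 for Tars1, and in C4BP arrays -0.09391 for Eprs1, -0.1201 for Lars1 and 0.09497 for Fars2. Between C4BPD and IAPP arrays Fars2 became -0.01825 and Rars2 -0.07802. That grouping left 0 genes passing in IAPP, C4BPD and C4BP arrays against DMSO, between C4BPD and IAPP arrays, in the interaction and in the F test. Cytosolic medians became -0.03385, -0.02528 and -0.07231 in IAPP, C4BPD and C4BP arrays against DMSO, -0.02112 for C4BP minus IAPP, -0.02992 for C4BP minus C4BPD and 0.007287 for the interaction. Mitochondrial medians became 0.01954 and 0.02724 in IAPP and C4BPD arrays against DMSO, -0.01825 for C4BPD minus IAPP and -0.03463 for the interaction. Which field names the arrays correctly was not tested.

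Apart from the treatment field, at least 1 count of genes moved by over 1.5 times in 7 of 10 other processing settings, in 15 of 20 fits without 1 array and in 5 of 5 fits without all arrays of 1 number, and the cause was not tested. For C4BPD against DMSO, 5 genes became 8 with array weights and 10 with the replicate block. For C4BP minus C4BPD, 0 became 1 with dim genes left out, with trend and robust variance, and with the block. For C4BPD minus IAPP, 2 became 0 with each array centred on its median or with all probe sets tested, and 1 with only those groups fitted. For the interaction, 2 became 0 with centring or with all probe sets, and 4 with the block. Those 4 were Cars1, Iars1, Aars1 and Mars1 (adjusted p 0.00227, 0.00311, 0.023 and 0.0133 by limma). With the replicate block the other counts were 12, 14, 3, 0 and 15 for IAPP minus DMSO, C4BP minus DMSO, C4BPD minus IAPP, C4BP minus IAPP and the F test, and no call was lost. Wars2 then passed in IAPP, C4BPD and C4BP arrays against DMSO (adjusted p 0.0232, 0.0296 and 0.00218 by limma) and Mars2 in C4BP arrays (0.00482), though the numbers are not a shown pairing there.

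Leaving out 1 array gave 7 to 10 genes in IAPP, 4 to 8 in C4BPD (8 without DMSO array 3) and 10 to 12 in C4BP arrays against DMSO, 0 to 3 for C4BPD minus IAPP, 0 to 1 for C4BP minus C4BPD (1 without C4BP array 1, 3 or 4), 1 to 3 for the interaction and 9 to 11 in the F test. Leaving out all arrays of 1 number gave 4 to 8, 4 to 4 and 7 to 12 against DMSO, 0 to 1 for C4BPD minus IAPP, 0 for the interaction, with adjusted p of 0.0655 to 0.183 for Cars1, and 4 to 10 in the F test. The calls of Aars1, Cars1, Iars1 and Mars1 against DMSO were kept under every setting but the treatment field. The number of arrays sets these limits, and signal over background could not be judged without detection values.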
